A study of Homo sapiens with 8 samples.

Results

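The 29 genes described here direct or mark the step from neural progenitor to neuron, and they were taken as a fixed set of named genes out of the 19821 protein-coding genes on the autosomes and X. They comprise 20 transcription factor genes, the 2 Notch ligand genes DLL1 and DLL3, the 4 structural genes DCX, TUBB3, STMN2 and MAP2, and the 3 RNA-binding protein genes ELAVL3, ELAVL4 and RBFOX3. KDM2A, a histone demethylase, and its substrate, dimethylated lysine 36 of histone H3 (H3K36me2), were mapped over them by chromatin immunoprecipitation sequencing (ChIP-seq). The cells were neural progenitors induced from the human embryonic stem cell line H9. In all 3 groups the stem cells had been infected with lentivirus and selected with puromycin before neural induction. The first group carried the control construct (NC) and the others carried the KDM2A hairpins sh1 or sh4, all introduced before differentiation. H3K36me2 was mapped in NC, sh1 and sh4 cells and KDM2A in NC cells only. Each group holds 1 library, and the 4 input libraries were not used here except through the read counts behind each H3K36me2 region. The peak lists hold no expression values, so neither the fall in KDM2A nor the labelled cell type was checked against marker genes here.

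Neuron differentiation proceeds as progenitors, held back by Notch signalling from neighbours that carry ligands such as DLL1, switch on transcription factors that fix a neuronal fate. Genes for the neuronal cytoskeleton and for neuronal RNA-binding proteins follow, and their products are the usual markers of newborn and mature neurons. KDM2A binds unmethylated CG-rich DNA through a zinc finger domain and removes H3K36me2. That mark lies broadly over gene bodies and the DNA between genes, and usually spares the starts of CG-rich genes.

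The promoters of this set run from CG-rich to CG-poor, and 4 are printed here to show that range, with CG in capitals. Each is the run of 250 bases just before an annotated start, 5′ to 3′ on the strand of the gene, from RefSeq (GRCh38.p14). ISL1, a LIM homeobox factor of motor neurons (chr5:51383198-51383447, plus strand), and DCX, the microtubule-binding protein doublecortin of migrating neurons (chrX:111412193-111412442, minus strand), have a KDM2A peak over the promoter. EBF3, an early B-cell factor of differentiating neurons (chr10:129964275-129964524, minus strand), has the most CG. TBR1, a T-box factor of deep-layer cortical neurons (chr2:161416047-161416296, plus strand), has the fewest CG of the annotated starts without a peak over the promoter. EBF3 and TBR1 were chosen after their values were seen.
ISL1: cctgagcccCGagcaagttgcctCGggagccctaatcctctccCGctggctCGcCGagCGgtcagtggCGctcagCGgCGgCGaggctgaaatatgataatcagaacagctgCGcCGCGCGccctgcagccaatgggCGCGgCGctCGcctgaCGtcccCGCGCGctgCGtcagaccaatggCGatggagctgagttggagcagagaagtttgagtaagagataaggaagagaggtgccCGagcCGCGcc
DCX: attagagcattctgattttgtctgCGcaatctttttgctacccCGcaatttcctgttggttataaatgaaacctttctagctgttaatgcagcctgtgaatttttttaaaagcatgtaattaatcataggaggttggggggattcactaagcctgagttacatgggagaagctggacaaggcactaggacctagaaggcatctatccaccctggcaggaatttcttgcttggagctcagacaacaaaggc
EBF3: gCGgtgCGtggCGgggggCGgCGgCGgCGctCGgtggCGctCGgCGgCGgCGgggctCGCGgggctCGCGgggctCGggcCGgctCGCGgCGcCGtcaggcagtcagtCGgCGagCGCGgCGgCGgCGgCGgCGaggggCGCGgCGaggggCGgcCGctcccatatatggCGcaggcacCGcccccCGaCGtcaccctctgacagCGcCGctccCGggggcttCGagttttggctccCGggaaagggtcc
TBR1: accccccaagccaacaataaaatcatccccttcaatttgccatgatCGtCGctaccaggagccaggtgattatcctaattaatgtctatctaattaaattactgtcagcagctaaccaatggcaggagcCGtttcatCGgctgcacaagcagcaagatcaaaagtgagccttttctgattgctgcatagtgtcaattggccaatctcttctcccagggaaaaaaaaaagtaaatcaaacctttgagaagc
In these runs CG occurs 27 times for ISL1, 2 times for DCX, 46 times for EBF3 and 4 times for TBR1. Counted over the 300 bases of the promoter table, which add 50 after the start, ISL1 has more CG than 83.6% of promoters, DCX than 6.03%, EBF3 than 99.0% and TBR1 than 14.5%. The promoter table holds 22 of the 29 genes. DLX5, FEZF2, INSM1, STMN2, ELAVL3, DLL1 and DLL3 are not among them and are described by both gene ends.

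A KDM2A peak overlapped a window of 2 kb to each side of a gene end at 28 of the 29 genes (96.6%), against 84% of all protein-coding genes. All 20 transcription factor genes, both Notch ligand genes and 6 of the 7 structural and RNA-binding genes had such a peak. STMN2, which encodes a tubulin-binding protein of growing axons, was the exception. Most of these peaks were weak. The 73 peaks at the ends of these genes had folds over local background of 1.66 to 3.79, with a median of 2.30, and pileups of 6 to 12 stacked fragments. An FDR under 0.05 was reached at the ends of 2 genes, EOMES and LHX6 (6.90%), against 5.55% of all genes. Both have it at the start, which makes 2 of 17 transcription factor starts (11.8%), against 3.43% of all starts. The deposited KDM2A list had not been limited by FDR, and its median peak had a fold of 2.33 and a pileup of 8. Folds, p-values, FDR and pileups are the authors' own. With 1 library there is no test between groups, and the shares over all genes stand beside most counts as their background.

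Among the transcription factor genes peaks lay more often at the start than at the other end. Of the 17 with an annotated start, 16 (94.1%) had a peak within 2 kb of the start, against 66.1% of all genes with one. At the other end 10 of the 17 (58.8%) had a peak, against 58.9% of all genes. The 17 starts carried 34 peaks, 2.00 per gene, against 1.07 per gene over all genes, and their other ends carried 0.94 per gene against 0.91. Of the 5 structural and RNA-binding genes with an annotated start, 3 had a peak there and 3 had one at the other end. The share of transcription factor starts with a peak also stood above that of all genes in narrower windows. It was 12 of 17 (70.6%) against 51.2% within 1 kb, and 8 of 17 (47.1%) against 38.8% within 500 bp. With windows of 1 kb around both ends, 15 of 20 transcription factor genes (75%) and 6 of 7 structural and RNA-binding genes (85.7%) had a peak, against 68.8% of all genes, so the order of the 2 groups turned.

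**Figure D1:**
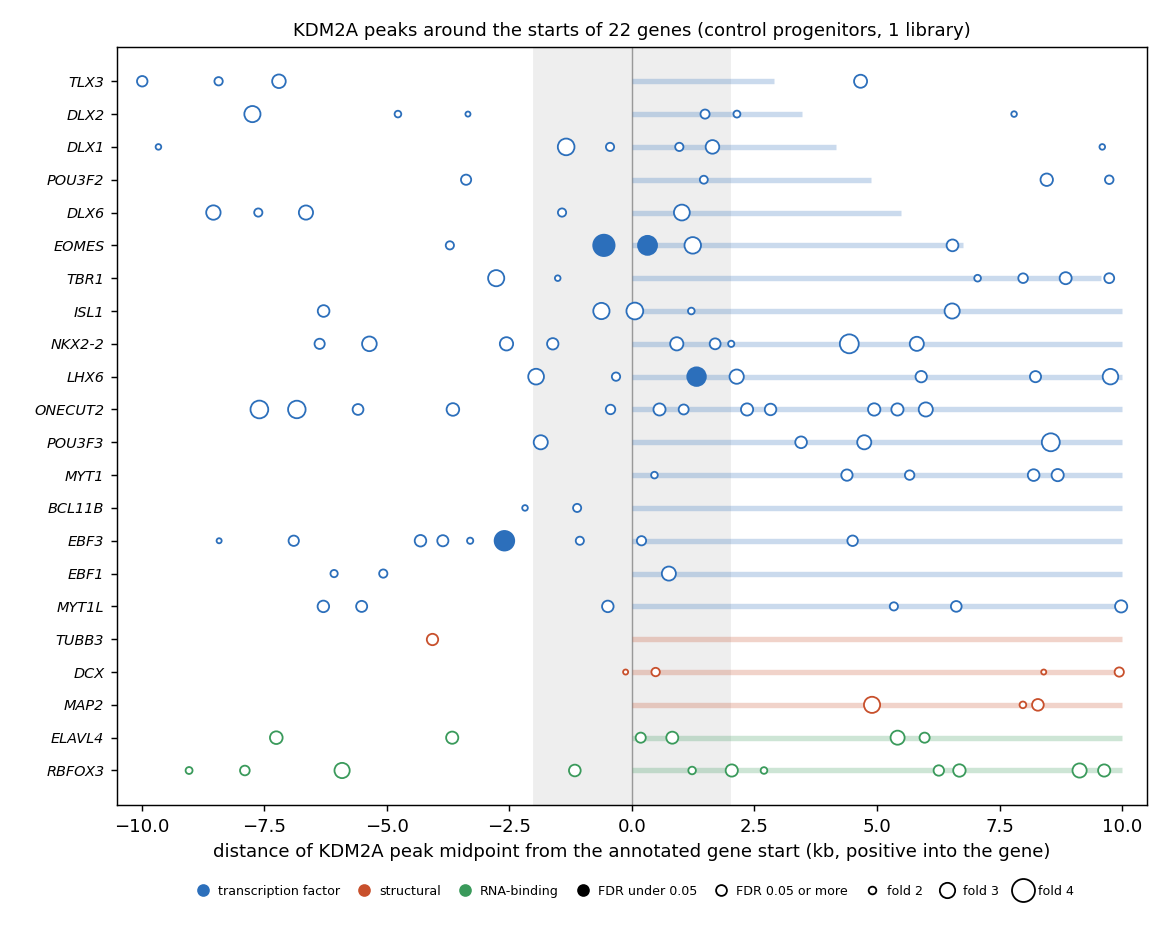
KDM2A peaks in control progenitors within 10 kb of the annotated starts of the 22 genes with a start in the promoter table, 1 row per gene; the x axis is the distance of the peak midpoint from the start in kb, circle size is the fold, filled circles have an FDR under 0.05, bars are gene bodies and grey is the window of 2 kb. DLX1, LHX6 and NKX2-2 have 4 peaks each that overlap the window, with the midpoint of 1 LHX6 and 1 NKX2-2 peak just past its edge, while TLX3, TUBB3 and MAP2 have none.

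The strongest peaks at a gene end lay at EOMES, the T-box factor of intermediate progenitors of the cortex (chromosome 3, 27715953 to 27722713, minus strand). A peak outside the gene, at -569 bp from its start, had a fold of 3.79 and an FDR of 0.0214. Another, 321 bp inside the gene, had a fold of 3.48 and an FDR of 0.0454. A further peak, 1243 bp inside, had a fold of 3.15 with an FDR of 0.145, so 3 peaks lay within 2 kb of this start. LHX6, a LIM homeobox factor of cortical interneurons (chromosome 9), had 4 peaks at its start. The highest, 1321 bp inside the gene, had a fold of 3.42 and an FDR of 0.0497, just under the limit. The outermost, outside the gene at -1952 bp from the start, had a fold of 3.05 and an FDR of 0.143.

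DLX1 and ISL1 had the next highest end folds. DLX1, a distal-less homeobox factor of forebrain interneurons, had 4 start peaks with folds of 2.07 to 3.18, the highest outside the gene at -1339 bp from the start with an FDR of 0.0840. ISL1 had 3 start peaks with folds of 1.87 to 3.19, and the highest, with an FDR of 0.102, covered the promoter printed above. DLX6, the distal-less gene paired with DLX5, had a peak 1021 bp inside its start with a fold of 3.07 and an FDR of 0.150. ELAVL3, a neuronal RNA-binding protein of the Hu family, had 3 peaks at its upper end, with folds of 2.73, 3.02 and 3.05. Together with EOMES and LHX6 these were the 6 genes (20.7%) with an end peak among the 10% of highest fold in the list (3.04 or more), against 16.4% of all genes. At the start, 5 of 17 transcription factor genes had such a peak, against 9.94% of all genes.

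The other transcription factor genes had lower folds at their ends. NKX2-2, a homeobox factor of ventral neural tube, had 4 start peaks with folds of 1.81 to 2.73. ONECUT2, a cut homeobox factor, had 3 with folds of 2.24 to 2.58. EBF3 had 2 start peaks, with folds of 2.21 and 2.07. A stronger EBF3 peak lay just beyond the 2 kb window, at -2598 bp from the start, with a fold of 3.56 and an FDR of 0.0371. BCL11B, a zinc finger factor of corticospinal neurons, had 2 start peaks with folds of 2.06 and 1.73. The paired genes DLX2 and DLX5 had end folds of up to 2.19 and 2.51. Single start peaks lay at POU3F2 and POU3F3, POU factors of upper-layer neurons, with folds of 2.04 and 2.84. MYT1 and MYT1L, zinc finger factors of neural development, also had 1 start peak each, with folds of 1.87 and 2.51, and EBF1, a relative of EBF3, had 1 with a fold of 2.84. TBR1 differed in its layout, with 1 peak before its start and 5 at its other end, of folds 1.87 to 2.57. FEZF2, a zinc finger factor of deep-layer neurons, had 1 peak at each end, and INSM1, a zinc finger factor of newborn neurons, had 3 peaks with folds of 1.95 to 2.59. TLX3, a homeobox factor of spinal and hindbrain neurons, had no start peak, and its only end peak lay beyond the other end with a fold of 2.70.

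Notch ligand and structural genes had end folds of 1.66 to 2.55. DLL1 had 1 with a fold of 1.91, and DLL3, a divergent ligand known to inhibit Notch within its own cell, had 2 with folds of 1.96 and 2.24. DCX had 2 peaks at its start, at -126 bp outside the gene with a fold of 1.66 and 486 bp inside with a fold of 2.10, and the lower of these was the lowest fold at any end in the set. TUBB3, the neuronal beta-tubulin, had 2 peaks at its other end and none at its start. MAP2, a dendritic microtubule-binding protein, had 1 at its other end with a fold of 2.29. Among RNA-binding genes, ELAVL4, another Hu protein, had 2 start peaks with folds of 2.32 and 2.57. RBFOX3, the splicing factor detected as NeuN, had 3 start peaks with folds of 1.99 to 2.59.

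Transcription factor genes with 20 or more CG in the promoter had more start peaks per gene than those with fewer. Counts of CG, a motif that reads the same on both strands, were made in the 300 bases of the outermost promoter in the table. For MAP2, RBFOX3, EBF1, POU3F3, EOMES and LHX6 that promoter begins inside the annotated gene. At MAP2 it lies at 209579082 to 209579381, in a gene that starts at 209424047. Start peaks were counted at the outer gene end, so for these genes CG and start peaks were not taken at the same position. The median was 23 for the 17 transcription factor genes, 9 for the 5 structural and RNA-binding genes and 22 for all genes. All 12 transcription factor genes with 20 or more CG had a start peak, with 2.50 peaks per gene. Of the 5 with fewer, 4 had one, with 0.80 per gene. Single genes did not all follow this order. Of the 12, DLX2, POU3F2 and POU3F3, with 30, 24 and 21 CG, had 1 start peak each, and the rest had 2 or more. TBR1, MYT1, MYT1L and EBF1, all with fewer CG, also had 1 each. Over all genes the same split gave 67.5% and 64.3%, with 1.09 and 1.04 peaks per gene, so the difference in peaks per gene was far smaller over all genes. The split at 20 CG was chosen after the values were seen. A KDM2A peak overlapped the 300 bases themselves at 21.0% of all 22132 promoters in the table, rising from 14.3% of those with under 5 CG to 26.0% of those with 30 or more. The 22 genes have 50 promoters in the table, alternative ones included, and 13 of them (26%) had a peak. These were 5 of 23 promoters of transcription factor genes (21.7%) and 8 of 27 of structural and RNA-binding genes (29.6%), which had fewer CG (medians of 20 and 8). They belong to 7 genes: EOMES, LHX6, ISL1, MYT1L, DCX, ELAVL4 and RBFOX3. EBF3, with 52 CG in its window, was not among them. A CG count describes these letters and says nothing of their methylation in these cells.

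Inside gene bodies, KDM2A peaks were dense over several long genes of the set. In all 776 peak midpoints fell in the bodies of 28 of the 29 genes (96.6%, against 89.4% of all genes), with TLX3 at 0. By length they were 14 of 15 genes under 20 kb (against 77% of all such genes), 6 of 6 from 20 to 100 kb (99.3%) and 8 of 8 over 100 kb (100%). The median density was 2.76 peaks per 10 kb against 1.82 over all genes. It was 3.19 for transcription factor genes (0 to 5.78) and 2.11 for structural and RNA-binding genes (0.71 to 4.22). Pooled over all bodies of a group, the density was 2.82 for transcription factor genes and 2.81 for structural and RNA-binding genes, so the order of the medians was not seen in the pooled values. The groups differ in gene length, with a median of 10.4 kb for transcription factor genes and 118 kb for structural and RNA-binding genes. Among genes over 100 kb the medians were 3.44 for 4 transcription factor genes, 2.44 for 4 structural and RNA-binding genes and 1.56 for all 3350 genes of that length. Pooled over the same long genes the order turned, at 2.70 for transcription factor genes (318 peaks) and 2.90 for structural and RNA-binding genes (337 peaks), of which RBFOX3 gave 243.

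RBFOX3 and BCL11B stood near the top of their length class. RBFOX3, with 243 peaks over its body on chromosome 17, had a density of 4.22, above 99.8% of genes over 100 kb. BCL11B had 3.79 (above 99.3%), EBF3 had 3.64 (above 99.0%), MYT1L had 3.25 with 176 peaks (above 97.4%), and ELAVL4 had 2.76 (above 92.4%). Of genes from 20 to 100 kb, MYT1 had 3.98 (above 96.3%) and LHX6 had 3.79 (above 94.9%). MAP2 lay at the opposite end with 0.84, above only 7.25% of its class, and EBF1 had 1.39, above 39.0%. Densities of genes under 20 kb rest on 0 to 6 peaks each. Among these, DLX2 reached 5.78 and NKX2-2 5.14, both of the transcription factor group, while TUBB3 had 0.71.

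Body peaks with an FDR under 0.05 occurred in 7 genes (24.1%, against 20% of all genes), 19 peaks in all. RBFOX3 held 9 of them, including a peak 320974 bp into the gene with a fold of 5.16, a pileup of 19 and an FDR of 2.38e-06. ELAVL4 held 1, 46766 bp into the gene, with the highest fold in the set, 5.31, a pileup of 16 and an FDR of 1.09e-05. MYT1L held 4 with folds of 3.48 to 3.92, all 276941 bp or more from its start. The highest of these, 538661 bp into a gene of 542163 bp, lay near the other end but outside its 2 kb window. BCL11B held 2 with folds of 3.44 and 3.48. EOMES, LHX6 and ELAVL3 held 1 each, and that of ELAVL3 had a fold of 3.51. For RBFOX3, MYT1L, BCL11B and ELAVL4, therefore, the strongest peaks lay in the body, outside the 2 kb windows at the gene ends. This was not particular to them. DCX, MAP2, EBF1 and EBF3, also over 100 kb, had higher folds in the body than at the ends (3.15 against 2.10, 3.47 against 2.29, 3.25 against 2.84 and 3.09 against 2.68). Long bodies also hold more peaks than their ends, as at DCX with 25 against 2. By length, 4 of 8 genes over 100 kb held such a peak, against 55.9% of all genes that long, 2 of 6 from 20 to 100 kb, against 20.8%, and 1 of 15 under 20 kb, against 5.66%, so these counts lie near the background. A body peak among the 10% of highest fold was held by 18 of the 29 genes, against 41.9% of all genes. This count was not split by gene length, so it cannot be set against genes of like length.

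**Figure D2:**
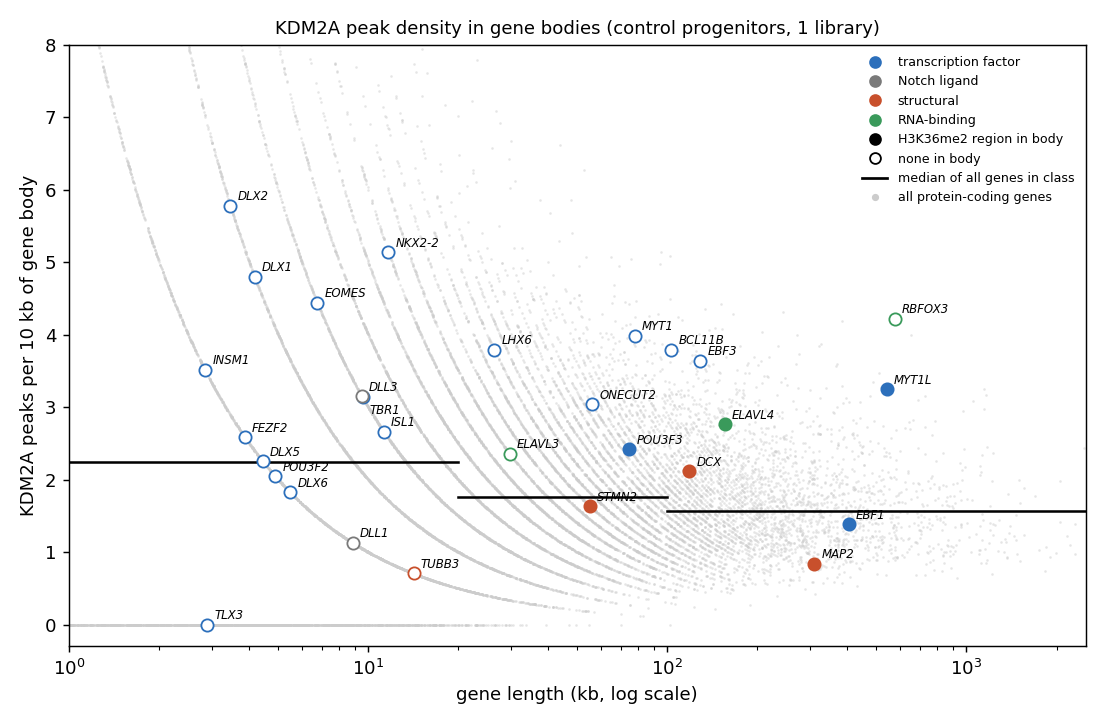
KDM2A peaks per 10 kb of gene body in control progenitors (y axis) against gene length in kb on a log scale (x axis); coloured circles are the 29 genes by role, filled where an H3K36me2 region lay in the body in any of 3 libraries, grey points are all protein-coding genes and black lines are medians of 3 length classes (grey points above 8 per 10 kb or outside the length axis are not drawn). RBFOX3, BCL11B and EBF3 sit well above the median of 1.56 for genes over 100 kb, and MAP2 and EBF1 below it.

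H3K36me2 regions were absent from most of these gene bodies. In the control a region lay in the body of 7 genes (24.1%, against 20% of all genes), in sh1 of 3 (10.3%, against 16.2%) and in sh4 of 4 (13.8%, against 15.4%). Of the transcription factor genes 3 of 20 were covered in NC, 1 in sh1 and 1 in sh4, and of the structural and RNA-binding genes 4, 2 and 3 of 7. None of the 15 genes under 20 kb had a region in its body in any library. Over all genes of that length a region lay in 2.87% of bodies in NC, 1.71% in sh1 and 1.55% in sh4. Both Notch ligand genes, TUBB3 and most homeobox genes are among these short genes. BCL11B, EBF3, RBFOX3, MYT1, LHX6, ONECUT2 and ELAVL3, all longer, likewise had none. In all 22 genes (75.9%) had none in any library, against 70.6% of all genes, and 3 (10.3%) had one in every library, EBF1, MAP2 and STMN2, against 7.52%. Genes from 20 to 100 kb had a region in 2, 1 and 1 of 6 in NC, sh1 and sh4, against 19.7%, 14.1% and 13.1% of all genes that long. Those over 100 kb had one in 5, 2 and 3 of 8, against 66.2%, 59.1% and 57.5%. The long genes of the set were thus covered in a smaller share than other long genes in sh1 and sh4, on counts of 8. A region list shows where enrichment passed the caller, and DNA outside regions can still carry the mark. The regions had folds over input of 1.21 to 2.41, with a median of 1.60. Intervals of fold below are 95% binomial intervals, cover counting error only, and lie above 1 because the regions were called from the same reads. With folds above 2 alone, body coverage was left at 1 gene in NC (3.45%, against 2.87% of all genes), 1 in sh1 (3.45%, against 3.94%) and 0 in sh4 (against 4.43%).

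By body coverage, 4 genes were lower in both hairpins than in the control (13.8%, against 12.6% of all genes), 1 was higher in both (3.45%, against 4.69%) and 2 moved in opposite directions (6.90%, against 4.75%). Both hairpins are set against the same control library, so these counts are not independent. The lower 4 were POU3F3, MYT1L, ELAVL4 and MAP2. ELAVL4 (chromosome 1, 155718 bp long) was covered over 6.16% of its body in NC and 0% in sh1 and sh4. Its NC regions were 6000 and 3600 bp wide, with folds of 1.45 (1.16 to 1.80; 213 IP and 145 input reads) and 1.95 (1.45 to 2.65; 135 and 68 reads). POU3F3 (chromosome 2) was covered over 4.30% in NC and 0% in both hairpins, by a region of 3200 bp with a fold of 1.78 (1.32 to 2.43). That region also overlaps the annotated noncoding gene LINC01159. MYT1L was covered over 0.885% in NC by a region of 4800 bp with a fold of 1.89 (1.43 to 2.52), and over 0% in both hairpins. Coverage at these 3 genes thus rests on 1 or 2 control regions each. With folds above 2 alone, none of these 3 genes nor MAP2 had a region in the body in any library, and with folds above the control median the ELAVL4 difference was -2.31 points in place of -6.16.

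MAP2 (chromosome 2, 310066 bp long) was covered over 5.61% of its body in NC, 2.32% in sh1 and 2.58% in sh4. The 3 NC regions lay nearer its start than its other end, and the sh1 regions overlapped 2 of them. The sh4 regions lay elsewhere, and none overlapped an NC region. When only regions with a fold above the control list's median were kept, the direction at MAP2 turned, with coverage 0.452 points higher in sh1 and 0.323 points higher in sh4 than in NC.

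EBF1 (chromosome 5, 403997 bp long) was the only gene of the set with more body coverage in both hairpins, at 8.96% in NC, 15.7% in sh1 and 11.3% in sh4. It held 6 body regions in NC, 11 in sh1 and 7 in sh4, the most of any gene in the set in each library. The widest was an sh1 region of 15000 bp with a fold of 1.28 (1.12 to 1.46; 542 IP and 419 input reads). NC and sh1 shared 14.2 kb over this gene and its flanks, NC and sh4 shared 7.8 kb, sh1 and sh4 shared 4.2 kb, and 0.2 kb was covered in all 3 libraries. With folds above the control median the difference from NC was 4.21 points in sh1 and 0.743 in sh4, in place of 6.78 and 2.38, and STMN2 and MAP2 were then also higher in both hairpins. With folds above 2 alone it was 0.594 and 0 points. Most covered positions in EBF1 therefore differed between libraries.

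DCX and STMN2 moved in opposite directions in the hairpins. DCX (chromosome X, 118414 bp long) was covered over 6.76% of its body in NC, 0% in sh1 and 13.3% in sh4. Its NC regions, 3000 and 5000 bp wide, had folds of 2.08 (1.49 to 2.93) and 1.49 (1.17 to 1.90). Its 3 sh4 regions had folds of 1.45 to 1.72, and none overlapped an NC region inside the gene. STMN2 (chromosome 8, 55042 bp long) was covered over 9.08% in NC, 4.72% in sh1 and 10.2% in sh4. Its NC and sh4 regions, 5000 and 5600 bp wide, shared 4.2 kb, with folds of 1.47 (1.18 to 1.85) and 1.65 (1.30 to 2.10). The sh1 region, 2600 bp wide with a fold of 1.88 (1.32 to 2.70), lay at another place in the gene. With regions above the control median fold alone, STMN2 was 4.72 points higher in sh1 and 10.2 points higher in sh4 than in NC, so the opposite directions were lost. DCX was 6.59 points higher in sh4 than in NC with all regions and 2.87 points with equal numbers of regions per library. It was 1.35 points with folds above the control median, and with folds above 2 alone, it was at -2.53 points in sh4 against NC.

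**Figure D3:**
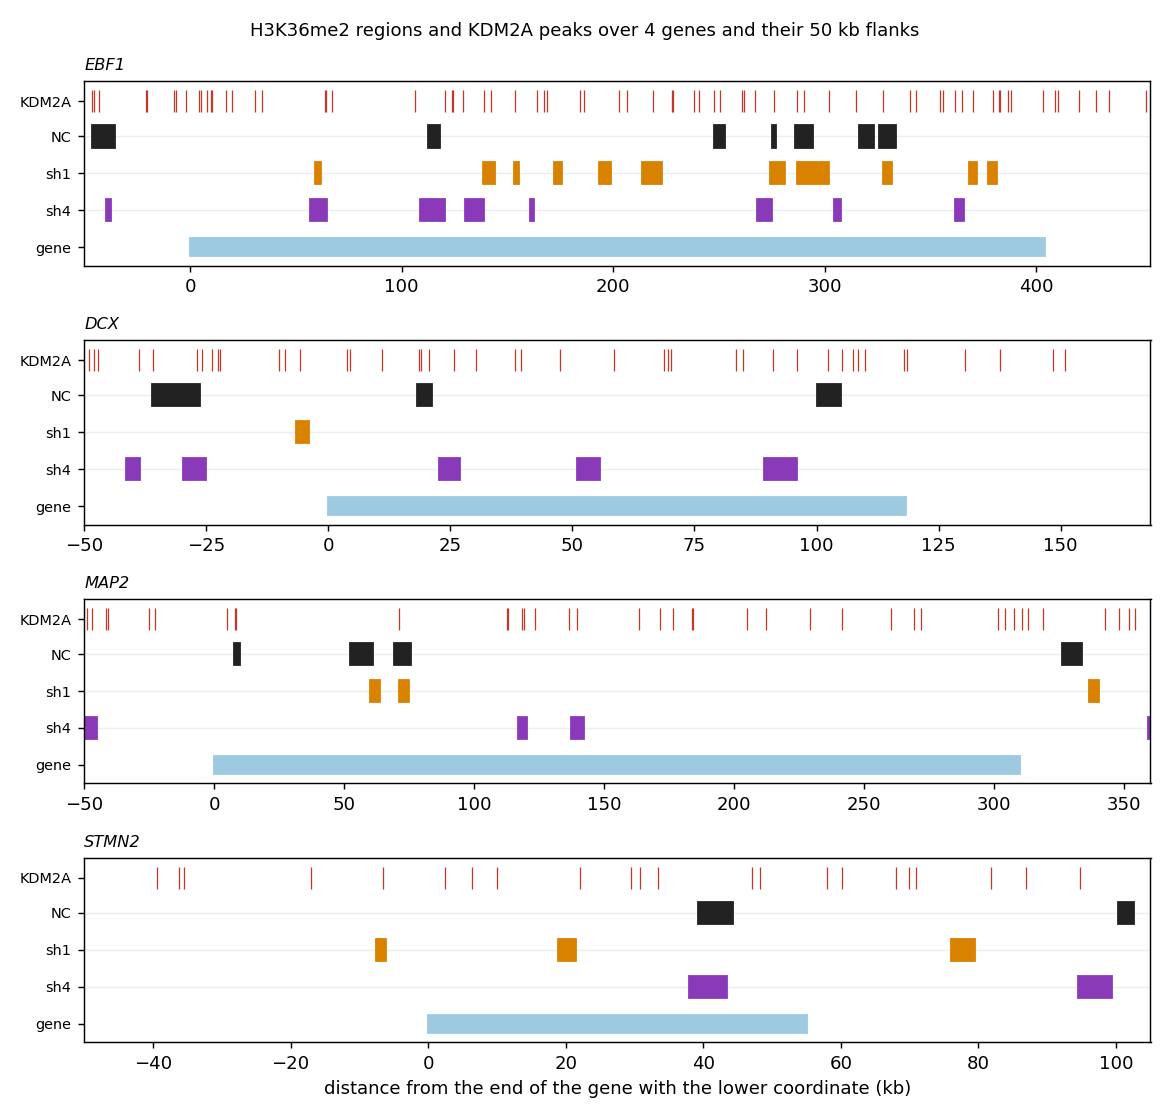
H3K36me2 regions in NC, sh1 and sh4 and KDM2A peaks in NC over EBF1, DCX, MAP2 and STMN2 with 50 kb flanks; the x axis of each panel is the distance in kb from the gene end with the lower coordinate, and bars are to scale. Regions of the 3 libraries mostly lie at different places in the same gene.

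With 50 kb flanks added, a region was found at 15 genes in NC (51.7%, against 41.7% of all genes), 10 in sh1 (34.5%, against 31%) and 10 in sh4 (34.5%, against 28.7%). The mean share of body and flanks covered was 2.69% in NC, 2.23% in sh1 and 2.54% in sh4, beside 2.33%, 1.66% and 1.74% over all genes. With 25 kb flanks the mean over the set was 0.0108 points higher in sh1 and 0.0816 points higher in sh4 than in NC, so its direction depends on the flank. The sh4 list is the largest, with 21493 regions over 112 Mb against 19691 over 102 Mb in NC and 19501 over 94.3 Mb in sh1, and with equal numbers of regions the mean in sh4 was -0.559 points from NC in place of -0.148. Coverage was lower in both hairpins than in NC at 8 genes (27.6%, against 26.2%), higher in both at 2 (6.90%, against 8.54%) and opposite at 4 (13.8%, against 10.2%). All 3 libraries had coverage at 7 genes (24.1%, against 15.7%), and 12 had none in any library (41.4%, against 45.6%). Lower, higher and opposite genes were thus about as frequent as over all genes. The 12 without a region were DLX5, DLX6, TBR1, BCL11B, MYT1, INSM1, TUBB3, ELAVL3, RBFOX3, ONECUT2, EBF3 and DLL3.

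Flank regions often lay in neighbouring genes. DLX1 and DLX2 stand side by side on chromosome 2 and share most of the same regions, all in the neighbour METAP1D. Coverage at DLX1 was 7.58% in NC, 4.61% in sh1 and 7.87% in sh4, and at DLX2 it was 1.93%, 4.64% and 6.15%. The sh1 and sh4 regions there shared 3.4 kb that was not covered in NC. FEZF2 was at 2.89% in NC, 0.501% in sh1 and 14.4% in sh4, where the 2 regions, 8200 and 6800 bp wide, lay to either side of the gene and the second in CADPS. POU3F2 was at 7.30% in NC, 0% in sh1 and 4.58% in sh4, and NC and sh4 shared 3.4 kb before its start. POU3F3 was at 13.5% in NC, 11.0% in sh1 and 0% in sh4, with 7.925 kb shared by NC and sh1. The widest region near any of the genes, 18000 bp, reached into this window in NC, with a fold of 1.21 (1.08 to 1.36), the lowest of all.

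EOMES was at 1.87% in NC, 11.8% in sh1 and 0% in sh4, and DLL1 was at 3.12% in NC, 0% in sh1 and 1.84% in sh4. With flanks, DCX was at 8.15%, 1.19% and 10.7%, STMN2 at 4.77%, 4.77% and 6.84%, MAP2 at 6.15%, 2.63% and 3.38% and EBF1 at 9.33%, 12.6% and 9.52% in NC, sh1 and sh4. The other genes had coverage of body and flanks in 1 library only. LHX6 (2.53%), NKX2-2 (4.30%), ELAVL4 (3.75%) and MYT1L (0.747%) were covered in NC alone, the latter 2 in the body and not in the flanks. TLX3 was covered over 11.1% in sh1 alone, by a region of 11400 bp in RANBP17, and ISL1 over 8.27% in sh4 alone. Library-specific coverage was therefore found for the control and for each hairpin.

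**Figure D4:**
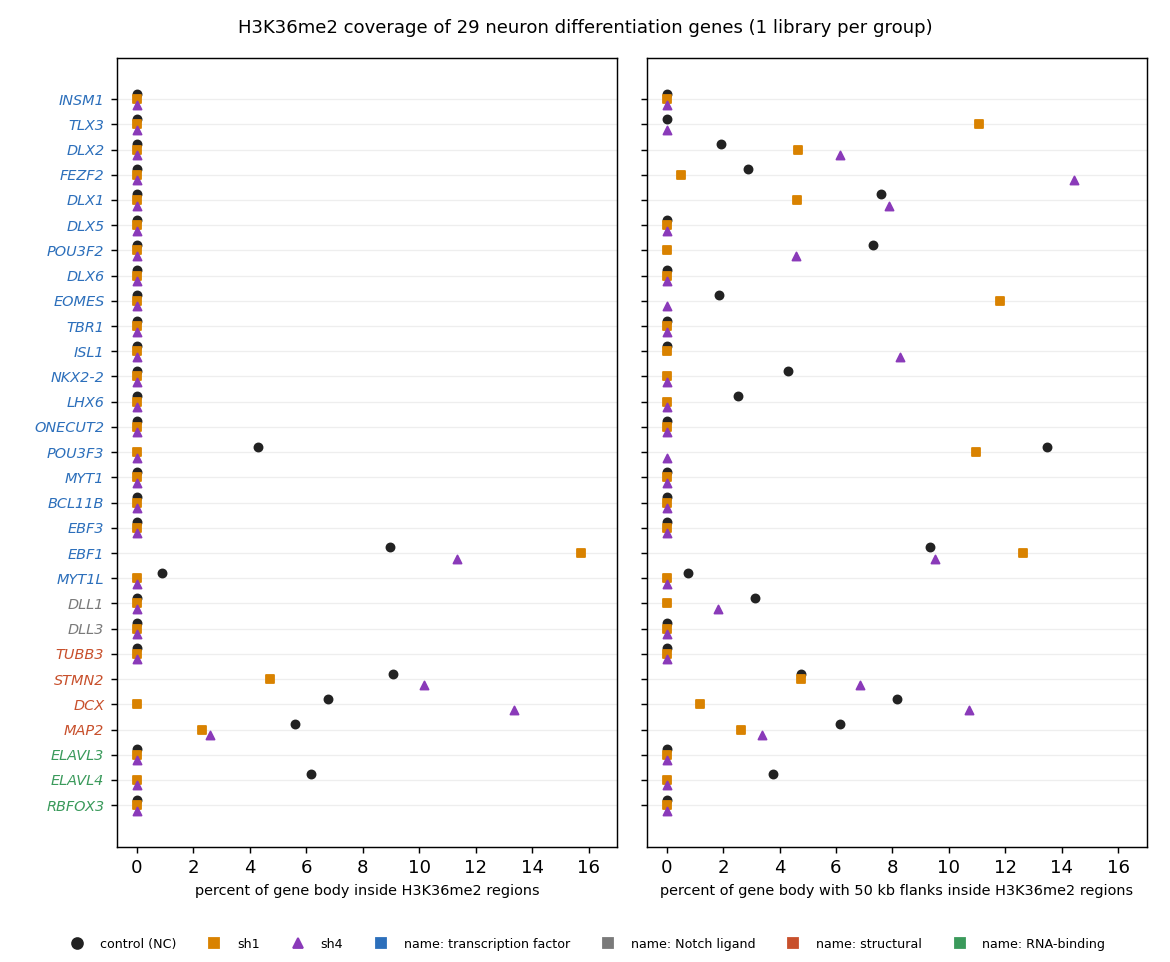
Percent of the gene body (left) and of the body with 50 kb flanks (right) inside H3K36me2 regions for the 29 genes, with black circles for NC, orange squares for sh1 and purple triangles for sh4, 1 library each. Most genes lie at 0 in the body, and where coverage is above 0 the order of the 3 libraries differs from gene to gene.

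Over the 5481 kb of bodies and flanks, regions covered 167 kb in NC, 133 kb in sh1 and 135 kb in sh4. NC and sh1 shared 26.9 kb, which is 16.1% of the NC length and 20.3% of the sh1 length. NC and sh4 shared 18.8 kb (11.2% and 13.9%), and sh1 and sh4 shared 7.6 kb (5.72% and 5.63%). Only 0.2 kb, in EBF1, was covered in all 3 libraries. The whole region lists also shared little length. NC and sh1 shared 9.67% of the NC length and 10.4% of the sh1 length, NC and sh4 shared 8.68% and 7.87%, and sh1 and sh4 shared 11.3% and 9.53%. All 3 whole lists shared 1381 kb, 1.36% of the NC length, a larger share than the 0.2 of 167 kb in the set. Low sharing between pairs of lists is therefore a feature of these libraries as a whole. Without replicates how much length repeat libraries of 1 group would share is unknown.

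KDM2A peaks were sparser in the long genes with H3K36me2 in the body than in those without. Of the 14 genes of 20 kb or more, the 7 with a region in any library had a median of 2.11 KDM2A peaks per 10 kb (0.84 to 3.25), and the 7 without had 3.79 (2.36 to 4.22). The ranges overlap. Over all genes of this length the medians were 1.55 (5331 genes) and 1.89 (5635 genes), in the same order. Genes with a region were longer, with median lengths of 156 against 77.8 kb in the set and 105 against 39.9 kb over all genes. Within length classes the order held. Over 100 kb the medians were 2.11 (5 genes) and 3.79 (3 genes), against 1.52 and 1.96 over all genes. From 20 to 100 kb they were 2.03 (2 genes) and 3.42 (4 genes), against 1.58 and 1.88. Within the windows of the set, KDM2A peaks numbered 1.91 per 10 kb inside NC regions and 2.52 outside them. The outside includes genes dense in KDM2A peaks that hold no region, such as RBFOX3, BCL11B and EBF3. Inside single genes the order varied. The NC body regions of DCX, 3000 and 5000 bp wide, held 3 and 1 peaks, with 2.11 per 10 kb over its body. Those of STMN2 and MYT1L, 5000 and 4800 bp wide, held 0, with 1.64 and 3.25 over their bodies. Whether KDM2A peaks are sparser inside regions was not tested. The depth of the KDM2A library is not given in the sources used here.

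Related genes outside the set were counted in the same way. Of 26 other neuron differentiation transcription factor genes, 24 had a KDM2A end peak (92.3%, against 84% of all genes). Of the 20 with an annotated start, 16 had a start peak (80%, against 66.1%). In narrower windows this list did not stand above all genes. It had 10 of 20 starts with a peak within 1 kb (50%, against 51.2%) and 5 of 20 within 500 bp (25%, against 38.8%). GSX2, a homeobox factor of the ventral forebrain, had an end fold of 3.89 with an FDR of 0.00471. Of 18 paralogues of the transcription factors, 17 had an end peak (94.4%) and 13 of 14 a start peak (92.9%). Within 1 kb it was 12 of 14 starts (85.7%), and within 500 bp 9 of 14 (64.3%). The highest folds were at FEZF1 (3.79) and TBX21 (3.48). Of 26 other structural and RNA-binding genes, 24 had an end peak (92.3%) and 11 of 18 a start peak (61.1%). The highest folds were at STMN3 (3.37) and SYP (3.11). Start peaks per gene were 1.25, 1.79 and 1.28 in these 3 lists, against 1.07 over all genes. Body densities had medians of 2.08, 3.12 and 2.35, against 1.82. H3K36me2 regions lay in the body of 3, 7 and 3 of the 26 other transcription factor genes in NC, sh1 and sh4 (11.5%, 26.9% and 11.5%). Among the 18 paralogues it was 1, 1 and 2 (5.56%, 5.56% and 11.1%). Of the 26 structural and RNA-binding genes 8, 6 and 3 had one (30.8%, 23.1% and 11.5%). Over all genes the shares were 20%, 16.2% and 15.4%. The lists differ in gene length, with medians of 9.39, 6.44 and 47.5 kb, so their body counts are not alike in this respect.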

How the data were processed

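The data are 4 deposited peak lists, 1 per library. The submitters' processing notes list Bowtie 1.1.2, SICER and MACS2 without saying which made which list, and give the builds as hg38 and GRCh38. Per the file headers, the authors deposited a fold (a linear ratio of IP to background), a p-value, an FDR, a width and a score per peak, and for KDM2A a pileup, the signal of stacked fragments. The 504724 KDM2A peaks have p-values up to 0.0495 and FDR up to 0.869. IP and input read counts of H3K36me2 regions were recovered from fold and p-value, whole within 0.001 and 0.01 in 100% of recovered regions (medians of 162 and 99 in NC, 151 and 89 in sh1, 156 and 92 in sh4). They gave exact binomial (Clopper-Pearson) 95% intervals of fold, for counting error only.

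Genes and promoters came from RefSeq (GRCh38.p14), without exons. Of these, 679 genes of alternate or unplaced sequences were left out. A start is the outer gene end on the strand in the promoter table (15813 genes). End peaks overlap a window by 1 bp or more, and body peaks are counted by midpoint. Regions were moved to 1-based coordinates. Scripts ran in Python 3.11.15 with pandas 2.3.3 and were checked on simulated intervals.

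With 1 library per group no test was made. The genes, related lists and groups were chosen with earlier results of these data known. Values were given in full for genes with a KDM2A peak of FDR under 0.05, the 5 highest end folds, H3K36me2 in the body in any library, or flank coverage in 2 or more libraries. Neighbours that hold a flank region and the 2 highest end folds of each related list were also named. The value of 1 gene this rule names is not reported here. Sequences came from promoters under a KDM2A peak and outside the annotated gene span, plus 2 chosen later. Alternatives were stricter peak or region limits, other windows and flanks, and other groupings.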

Additional observations from a re-analysis of the deposited data

Results flagged for a closer look

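At 5 genes the hairpins moved in opposite directions from the shared control, and in each case the difference between the hairpins was not tested, since each group holds 1 library. Body coverage of DCX by H3K36me2 regions was -6.76 percentage points from NC in sh1 and 6.59 points in sh4. With 50 kb flanks the same gene was at -6.96 and 2.56 points. Body coverage of STMN2 was -4.36 points in sh1 and 1.09 in sh4. With flanks, DLX1 was at -2.97 and 0.294 points, EOMES at 9.93 and -1.87 points, and FEZF2 at -2.39 and 11.6 points, in sh1 and sh4. The DLX1 values come from regions in METAP1D, and those of EOMES from 1 NC and 2 sh1 regions. At folds above the control median STMN2 was higher in both hairpins. Over all genes, opposite directions were found for 4.75% of bodies and 10.2% of bodies with flanks.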

How the results depend on the processing

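No paired analysis was possible because each group has 1 library and the result comes from no test. With KDM2A peaks limited to an FDR under 0.05, genes with an end peak went from 28 to 2, transcription factor starts with a peak from 16 to 2, genes with a body peak from 28 to 7, and the excess in median body density of transcription factor over structural and RNA-binding genes from 1.08 to 0. With the 10% of highest fold, those 3 counts were 6, 5 and 18. Over all genes the shares were 5.55%, 3.43% and 20% at that FDR and 16.4%, 9.94% and 41.9% at that fold. These body shares are not split by gene length. With 1 kb windows the percent of transcription factor genes with an end peak minus that of structural and RNA-binding genes went from 14.3 to -10.7 points.

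With H3K36me2 regions limited to a fold above 2, covered bodies in NC, sh1 and sh4 went from 7, 3 and 4 to 1, 1 and 0, and covered bodies with flanks from 15, 10 and 10 to 2, 1 and 1. Genes lower in both hairpins went from 4 to 1 (body) and from 8 to 2 (flanks), and genes higher in both from 1 to 0 and from 2 to 1. With a fold above the control median, covered windows in sh1 fell to 6 and bodies higher in both rose to 3. With 25 kb flanks, covered windows in sh1 were 6. Over all genes, 2.87%, 3.94% and 4.43% of bodies were covered at folds above 2 in NC, sh1 and sh4. The other counts under these limits were made for the set alone. Whether their falls are particular to the set was not tested.

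Mean coverage with flanks, sh1 minus NC, turned from -0.452 to 0.0108 points with 25 kb flanks. For sh4 minus NC it turned from -0.148 to 0.0816 with 25 kb to 0.314 with 100 kb, and moved to -0.559 with equal numbers of regions per library. DCX in sh4 minus NC turned from 6.59 to -2.53 at folds above 2. At folds above the control median, STMN2 in sh1 turned from -4.36 to 4.72, and MAP2 from -3.29 to 0.452 in sh1 and from -3.03 to 0.323 in sh4. These stricter limits keep fewer peaks or regions. Of the other alternatives, 55 values of the main comparisons and 37 of single genes or means stayed within 1.5 times the value reported, in the same direction. A further 24 of the latter moved by more without turning. Among them, at folds above 2, the differences at POU3F3, MYT1L, ELAVL4, MAP2 and STMN2 went to 0, so the gene left as lower in both hairpins was DCX. Region read counts limit each fold to a wide interval, and the KDM2A depth is unknown.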
